A study of Mus musculus with 33 samples.

Results

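CD11b+ alveolar macrophages (AMs) from mice in which Zeb2 was deleted were compared with AMs of control (CRE-) mice. The libraries were chosen by their source labels, 5 of CD11b+ AMs and 5 of CRE- AMs out of the 33 bulk RNA-seq libraries of the study, and all 24421 genes of the count files were taken. Of these genes, 11573 had enough counts to be tested. The CD11b+ AMs came from Itgax-crexZeb2fl/fl mice and the CRE- AMs from Zeb2fl/fl littermates, so both groups carried floxed Zeb2 alleles. The mice were C57Bl/6 of both sexes, 6 to 8 weeks old and untreated, and 25000 sorted cells were used per sample. A further group, 5 libraries of CD11b- AMs, came from the same Itgax-crexZeb2fl/fl genotype and is used here to place the CD11b+ values. The labels of the CRE- AMs name no sort on CD11b, so that the sort on CD11b and the genotype differed together between CD11b+ and CRE- AMs and cannot be told apart.

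ZEB2 is a zinc finger transcription factor known mainly as a repressor of epithelial genes in the epithelial-to-mesenchymal transition (EMT), and it is also expressed across macrophages. AMs live in the air spaces, where they clear surfactant lipid, and their identity depends on the cytokine GM-CSF and the nuclear receptor PPARγ. They normally carry CD11c (Itgax) and SiglecF and little CD11b (Itgam). In this model CRE is driven by the Itgax promoter, which is active in AMs and in other CD11c-expressing cells such as dendritic cells. CRE+ lungs hold AMs that lost both Zeb2 alleles together with AMs that kept one, and the recombined allele still gives a truncated transcript, so Zeb2 counts do not read out the deletion in full.

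Total gene counts were 18565504 to 21665391 in CD11b+ AM libraries and 19427005 to 21726715 in CRE- AM libraries, with medians of 21195323 and 20683608. The 10 genes with most counts took 15.3 to 17.2% of the counts in CD11b+ AMs and 12.4 to 13.6% in CRE- AMs. Levels below are counts per 1000000 counts (CPM) scaled with TMM factors, which were 0.901 to 0.938 in CD11b+ and 1.04 to 1.06 in CRE- libraries. Macrophage markers were abundant in both groups: the summed level of 8 markers (Csf1r, Fcgr1, Adgre1, Mertk, Cd68, Cd14, Spi1 and Lyz2) was 32386 to 39547 CPM in CD11b+ AMs and 29868 to 35091 CPM in CRE- AMs. Csf1r, at 288 to 365 CPM in CD11b+ AMs, and Fcgr1, at 61.4 to 104 CPM, were small parts of this sum. The log2 fold changes of Csf1r, Mertk and Spi1 were -0.62, -0.22 and -0.22, and those of Adgre1 and Cd68 were 0.67 and 0.19. All of these passed an adjusted p under 0.05 but not a 2-fold change. By the calls defined below, which need both, 1 of the 8, Cd14, was higher and none lower. Since these are bulk samples, fewer cells expressing a gene and less RNA of it per cell cannot be told apart. Nothing in the labels says which libraries came from separate animals, and p-values then measure only the spread between these libraries.

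The targeted gene was checked first. Zeb2 (chr2:44983632-45117395, minus strand, GRCm38) was at 68.2, 66.2, 57.7, 59.7 and 48.9 CPM in CD11b+ AM libraries 1 to 5, against 179, 166, 201, 200.5 and 201 CPM in the CRE- libraries. Folds are given as ratios of group means in CPM and log2 fold changes as fitted by edgeR, and the measures can differ for genes with few counts. The groups did not overlap, and Zeb2 fell 3.15-fold (log2 fold change -1.66, SE 0.10, adjusted p = 3.23e-11). CD11b- AMs, from mice of the same genotype, lay between, at 102 ± 11.4 CPM (SD, n = 5). The difference between CD11b+ and CD11b- AMs was -0.77 on the log2 scale (edgeR quasi-likelihood test, adjusted p = 3.5e-06). It passed the adjusted p but was short of the 2-fold threshold. Itgam (chr7:128062640-128118491, plus strand), which encodes CD11b and was the sort marker, was at 227 to 270.1 CPM in CD11b+ AMs and 0.383 to 3.33 CPM in CRE- AMs, which describes the sort. In CD11b- AMs it was at 12.9 to 22.1 CPM.

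Siglecf and Itgax encode surface markers by which the study sorted AMs for single-cell RNA-seq. The full sort gate of these bulk libraries is not given in the sources used here. A gate of that kind would itself select for both markers. Both genes stayed abundant, and Siglecf fell. It was at 189.5, 215, 207, 218 and 234 CPM in CD11b+ AMs and 524, 491, 468, 517 and 586 CPM in CRE- AMs, a fall of 2.43-fold (adjusted p = 5.19e-11). Itgax, the gene whose promoter drives CRE, was at 1210 to 1355 CPM against 626 to 775 CPM, a log2 fold change of 0.84 that did not pass the 2-fold threshold although the groups did not overlap. Epcam and Cd101, encoding an epithelial adhesion protein and an inhibitory immunoglobulin-family receptor, rose in every library. Cd101 was at 461, 475, 560.5, 484 and 509.6 CPM in CD11b+ AMs and 24.7, 22.1, 24.1, 24.3 and 26.2 CPM in CRE- AMs. The lowest CD11b+ library was thus far above the highest CRE- library, and the increase was 20.5-fold (log2 fold change 4.36, SE 0.13, adjusted p = 1.62e-15).

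**Figure D1:**
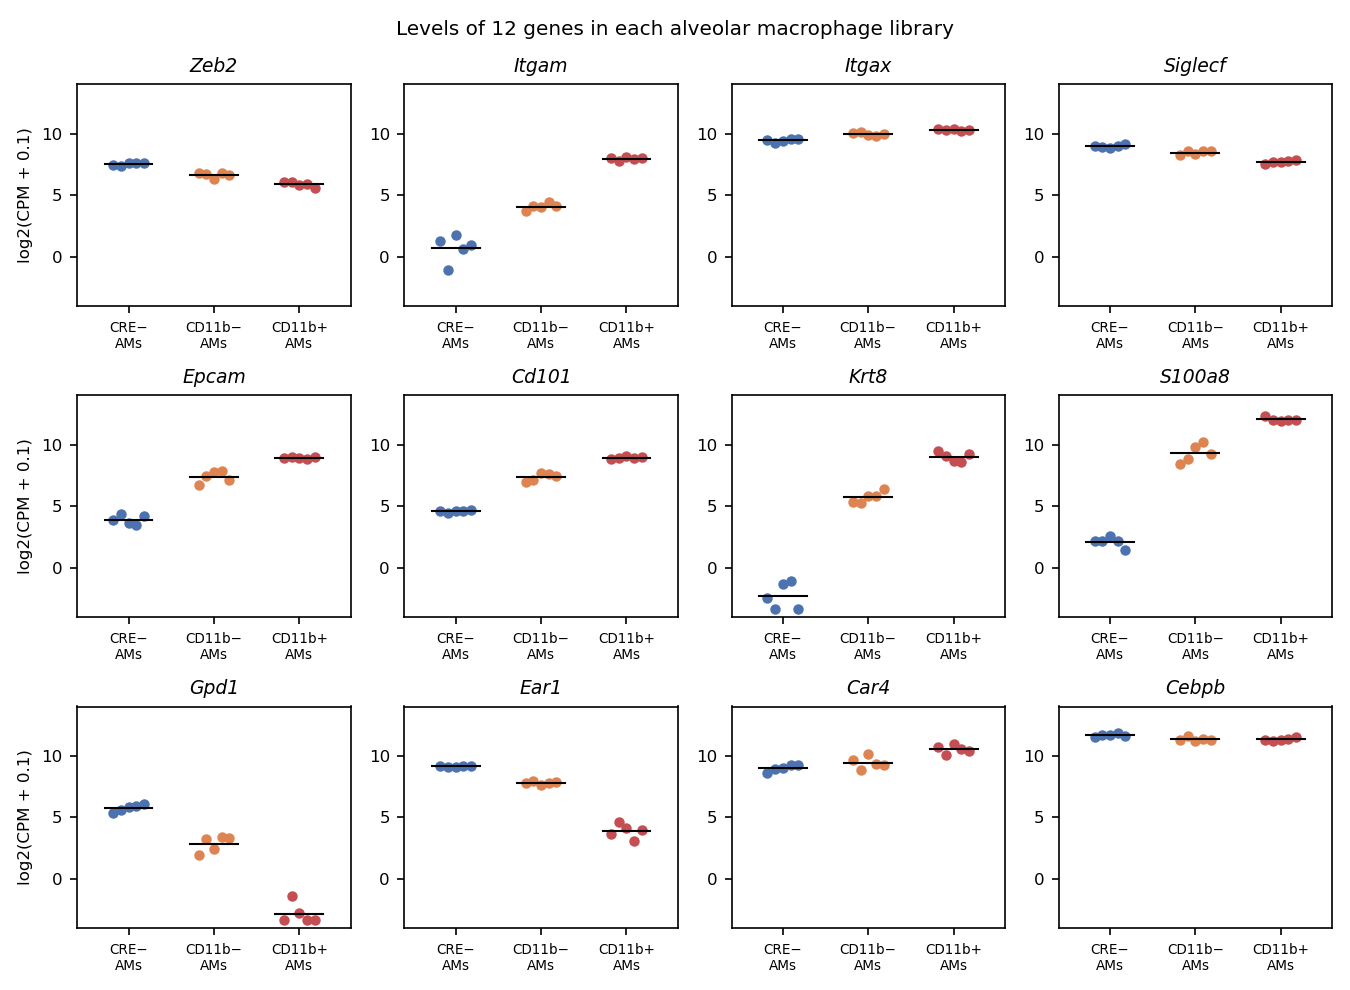
Level of 12 genes, as log2(CPM + 0.1), in each of the 5 CRE-, 5 CD11b- and 5 CD11b+ AM libraries, with one point per library and a line at the mean of the log2 values. Itgam, Epcam, Cd101, Krt8 and S100a8 were high in all CD11b+ libraries, Gpd1 and Ear1 were low in them, and the CD11b+ and CRE- points of Cebpb overlapped.

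In all, 1108 genes were higher and 657 lower in CD11b+ than in CRE- AMs at an adjusted p under 0.05 (edgeR quasi-likelihood test, Benjamini-Hochberg) and a change over 2-fold, 15.3% of the genes tested (9.57% higher and 5.68% lower). The increases were also the larger changes: 283 genes were over 16-fold higher and 53 over 16-fold lower. Genes with no CRE- count made up 56 of the higher genes, and 450 of the higher genes had a CRE- mean under 1 CPM. In the other direction, 149 of the lower genes had a CD11b+ mean under 1 CPM, 5 of them with no count. The 2 groups did not overlap in log2 CPM for 32.7% of all genes tested, and they did not overlap for 1004 of the 1108 higher and 592 of the 657 lower genes. The median log2 fold change over all genes tested was -0.01. Counts of list members below are to be read beside the 9.57% higher and 5.68% lower of all genes tested. A gene near 0 in CRE- AMs was tested only where CD11b+ or CD11b- AMs held it, and could then only be called higher. Lists with many such genes are therefore tilted toward higher calls by the filter.

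**Figure D2:**
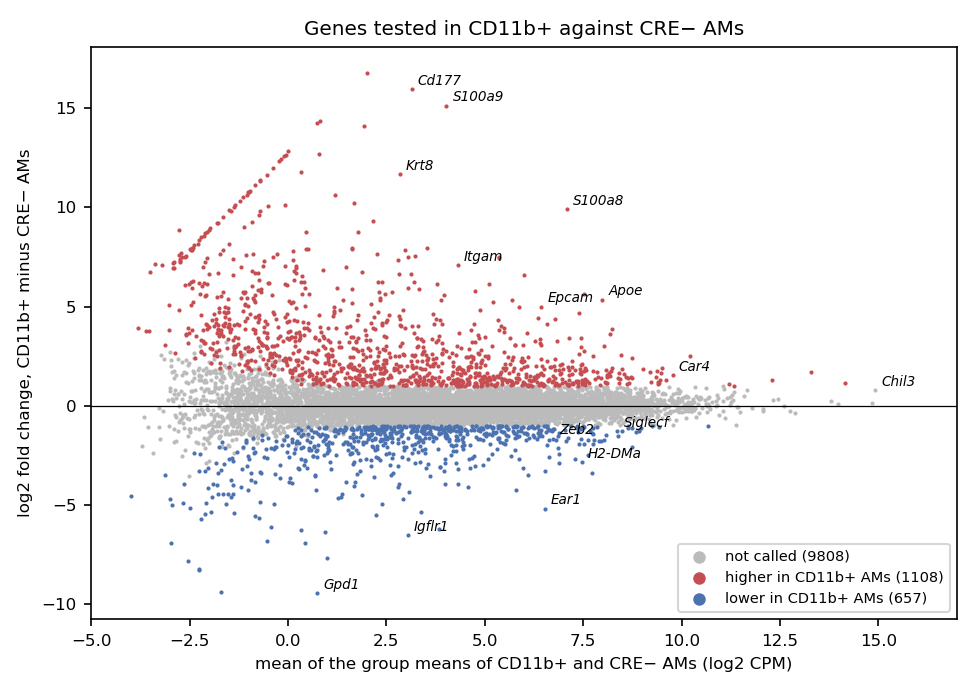
Log2 fold change of CD11b+ minus CRE- AMs for 11573 genes against the mean of both group means in log2 CPM, coloured by call (1108 higher, 657 lower, 9808 not called), with 15 genes named. The increases reach further from 0 than the decreases, and the straight line of points at upper left holds genes with no or almost no CRE- counts, whose fitted fold changes depend on the prior count.

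In a list of Zeb2 itself and EMT regulators, 15 of 21 genes were tested, of which 7 were higher and 3 lower. Zeb2 was 1 of the 3 lower genes. The ID genes, which encode helix-loop-helix proteins that block DNA binding by E proteins, rose together. Id2 was at 887 to 1177 CPM in CD11b+ AMs and 68.2 to 107 CPM in CRE- AMs, a 12.1-fold increase (adjusted p = 2.51e-14). Id1 rose 5.16-fold and Id3 3.18-fold. Zeb1, the paralog of Zeb2, was at 12.9, 14, 16.2, 15.2 and 14.4 CPM in CD11b+ AMs against 4.83, 2.97, 1.21, 5.38 and 2.73 CPM, so that all 5 CD11b+ libraries stood above all CRE- libraries. Its increase was 4.25-fold (log2 fold change 2.08, SE 0.38, adjusted p = 1.58e-04), and its CD11b- level was 3.47 ± 1.92 CPM.

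The remaining calls in that list were of genes with low counts. Esrp1 and Esrp2, splicing regulators of epithelial cells, and the EMT factor Snai1 were higher, with CD11b+ means of 2.59, 2.5 and 1.62 CPM and CRE- means of 0.0763, 0.368 and 0.0906 CPM. Ovol2 and Grhl1, transcription factors known to hold the epithelial state, were lower, Ovol2 at 1.37 against 7.4 CPM and Grhl1 at 0.533 against 2.12 CPM, the latter with overlapping groups.

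Genes of epithelial adhesion and keratin filaments were called in one direction. Of 34 tested members 18 were higher and none lower, against 9.57% higher over all genes, and the median log2 fold change of the 34 was 1.79. Members near 0 in CRE- AMs, such as Krt8, could only be called higher. Under a filter of at least 10 counts in every library 9 members were higher and none lower. The other 16 members were not called. The promoters of Epcam and of the 3 members with the largest increases, Krt8, its filament partner Krt18 and the polarity gene Crb3, are shown here because ZEB proteins are known to bind E-box motifs of the kind CAGGTG and CAGGTA. Each sequence runs 5′ to 3′ on the gene's strand from 250 bases before to 50 bases after the RefSeq start (GRCm38.p6), and capitals mark a match to CAGGTG or CAGGTA or to their reverse complements CACCTG and TACCTG.
Epcam (chr17:87635729-87636028, plus strand): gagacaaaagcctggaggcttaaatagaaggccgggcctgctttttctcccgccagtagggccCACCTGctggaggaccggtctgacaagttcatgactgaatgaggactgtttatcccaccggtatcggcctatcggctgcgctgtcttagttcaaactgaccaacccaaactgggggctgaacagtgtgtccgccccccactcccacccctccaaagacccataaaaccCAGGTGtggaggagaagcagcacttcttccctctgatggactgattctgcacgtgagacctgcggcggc
Krt8 (chr15:102004293-102004592, minus strand): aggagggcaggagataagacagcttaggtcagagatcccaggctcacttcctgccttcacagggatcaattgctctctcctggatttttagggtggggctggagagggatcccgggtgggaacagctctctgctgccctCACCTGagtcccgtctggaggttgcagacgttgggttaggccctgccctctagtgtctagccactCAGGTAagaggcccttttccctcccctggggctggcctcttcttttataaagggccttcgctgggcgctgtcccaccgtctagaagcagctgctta
Krt18 (chr15:102027966-102028265, plus strand): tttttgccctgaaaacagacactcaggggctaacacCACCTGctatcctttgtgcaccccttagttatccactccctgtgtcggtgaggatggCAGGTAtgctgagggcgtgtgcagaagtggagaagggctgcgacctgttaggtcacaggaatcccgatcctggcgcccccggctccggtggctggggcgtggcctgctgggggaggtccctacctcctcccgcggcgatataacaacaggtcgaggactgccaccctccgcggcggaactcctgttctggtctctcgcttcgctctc
Crb3 (chr17:57061951-57062250, plus strand): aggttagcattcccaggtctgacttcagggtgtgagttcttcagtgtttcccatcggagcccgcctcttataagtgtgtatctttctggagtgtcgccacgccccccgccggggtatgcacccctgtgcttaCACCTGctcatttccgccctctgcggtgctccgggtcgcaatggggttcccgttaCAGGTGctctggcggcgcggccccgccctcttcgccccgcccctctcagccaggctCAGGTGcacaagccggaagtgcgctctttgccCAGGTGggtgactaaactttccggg

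Epcam, Krt8 and Krt18 each held 2 matches in this window and Crb3 held 4. CAGGTG on either strand stood in 20.2% of 32851 RefSeq promoters of this length, in 17.4% of those of genes tested and in 25% of those of the 1108 higher genes, of which 887 (80.1%) could be matched to a promoter. CAGGTA stood in 12, 8.44 and 10.7% of the same sets. Among the lower genes, of which 79.3% could be matched, CAGGTG stood in 17.3% of the promoters. In the epithelial list it stood in 68.8% of 16 promoters of higher members (72.2% of members matched) and in 47.1% of 17 promoters of members not called (62.5% matched). So few members were matched in these last sets that nothing is read from their shares. Of the 16 promoters of higher epithelial members, 12 held either motif. Those that held neither include the promoters of Jup and Spint1 and 1 of the 2 promoters of Cldn7. These matches are letters in a window, and binding was not measured.

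Epcam (chr17:87635979-87651129) was at 484, 527, 489, 459 and 510.4 CPM in CD11b+ AMs and 14.5, 20.6, 12.3, 11 and 18.9 CPM in CRE- AMs, 31.9-fold higher (adjusted p = 1.45e-13). All 5 CD11b+ libraries were high and none of the CRE- libraries came near them. Krt8, which encodes a keratin of simple epithelia, was at 733, 554, 419, 380.2 and 627 CPM, whereas the CRE- libraries held 0.087, 0, 0.315, 0.371 and 0 CPM. Krt8 went from near absence to a level in every CD11b+ library, and its log2 fold change was 11.69 (SE 0.39, adjusted p = 9.22e-15). Krt18 was at 63.8, 50.8, 33.6, 32.6 and 72.7 CPM against 0 to 1.13 CPM, with the same libraries high and low as for Krt8. Crb3 was at 7.65 to 11.4 CPM and had a single library with any count among the CRE- AMs, which makes the ratio of counts 1015 with a 95% counting interval of 182 to 40147.

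St14, a membrane serine protease, rose 101-fold and its inhibitor gene Spint2 rose 20.2-fold. The tight junction genes Tjp3 and Cldn1 rose 71.2-fold and 17.1-fold. Cdh1, encoding E-cadherin, was already present in CRE- AMs at 72.8 to 110.4 CPM and rose 3.63-fold to 298 to 381 CPM (adjusted p = 3.50e-11). Against CD11b- AMs, 11 of the 34 members were higher and none lower in CD11b+ AMs, where 6.85% of all genes tested were higher. Krt8 was 3.29 log2 units above its CD11b- level (adjusted p = 1.09e-09) and Epcam 1.51 (adjusted p = 1.12e-06), while Cdh1 differed by 0.33. Tjp3, Spint2, Cldn1 and Cdh1 were named after their values were seen.

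The 10 largest increases among well expressed genes whose groups did not overlap were Bglap3, Cd177, S100a9, Tarm1, Cyp21a1, Ceacam10, Cdh17, Oscar, Entpd3 and Krt6b. Their CRE- libraries were at or near 0. Cd177, a glycoprotein gene used as a neutrophil marker, was at 2390, 2066, 1955, 2131 and 2451 CPM in CD11b+ AMs and had counts in a single CRE- library, at 0.139 CPM, a ratio of counts of 78579 with a 95% counting interval of 26888 to 381040. Bglap3, an osteocalcin-related gene, was at 755, 626, 765, 550.4 and 691 CPM, with no count in any CRE- library. With a floor of 3 counts per library it was at least 4860-fold higher. Both genes were uniform over the CD11b+ libraries and were also present in CD11b- AMs, at 63.4 to 209.5 CPM for Bglap3 and 109 to 239.8 CPM for Cd177.

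Tarm1 and Oscar encode activating receptors of myeloid cells. Tarm1 was at 112 to 149 CPM with no CRE- count, at least 906-fold higher, and Oscar was at 93.2 to 122 CPM with a CRE- count in a single library, a ratio of 10912 (1958 to 431029). Cyp21a1, encoding steroid 21-hydroxylase, was at 78 to 159 CPM and at least 858-fold higher. The cadherin gene Cdh17, the ectonucleotidase gene Entpd3 and the keratin gene Krt6b had no CRE- count either and were at least 319-fold, 278-fold and 269-fold higher. Ceacam10, of the carcinoembryonic antigen family, was at 385 to 515 CPM, a ratio of 23245 (6435 to 191949). In CD11b- AMs the means of Tarm1, Cyp21a1, Cdh17, Oscar, Entpd3 and Krt6b were 17.3, 13.3, 3.73, 10.2, 2.5 and 1.38 CPM, and all 10 genes were higher in CD11b+ than in CD11b- AMs.

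The 10 largest decreases by the same rule were Gpd1, Hr, Igflr1, Cpne5, Rab44, Ear1, Clec4b1, Prune2, Kazald1 and Clec4a2. Gpd1 (chr15:99717515-99725005, plus strand), encoding the glycerol-3-phosphate dehydrogenase that links glycolysis to glycerolipid synthesis, was at 0, 0.296, 0.0503, 0 and 0 CPM in CD11b+ AMs and 40.8, 47.7, 58.4, 61.6 and 69.6 CPM in CRE- AMs. It was thus almost absent from CD11b+ AMs, with 7 counts in all. The ratio of the group means in CPM was 804, and the fitted log2 fold change was -9.44 (SE 0.46, adjusted p = 2.30e-12). CD11b+ library 2 held most of its few counts, and without it the log2 fold change was -11.47. Hr, a nuclear corepressor gene, fell 225-fold (log2 fold change -8.94 without CD11b+ library 2) from a CRE- mean of 42.4 ± 7.15 CPM, and Igflr1, an IGF-like family receptor gene, fell 92.1-fold from 84 ± 16 CPM. Ear1, of the eosinophil-associated ribonuclease family that AMs also express, was at 12.8, 24.1, 17.2, 8.47 and 16.1 CPM against 546 to 592 CPM, a 36.4-fold fall (adjusted p = 1.87e-14). The C-type lectin genes Clec4b1 and Clec4a2 fell 25.9-fold and 17-fold, and Cpne5 and Rab44, encoding a copine and a Rab GTPase, fell 73.9-fold and 40.4-fold.

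These 10 genes were lower in CD11b+ than in CD11b- AMs as well. Gpd1 was at 3.87 to 10.3 CPM in the CD11b- libraries and Ear1 at 201 to 246 CPM, between the other groups in both cases. Prune2 and Kazald1 were closer to the CRE- level in CD11b- AMs, with means of 23.5 and 154 CPM against 39.8 and 242 CPM in CRE- AMs and 1.96 and 12.7 CPM in CD11b+ AMs. Bglap3, Ear1 and the other Ear genes have near-identical copies in the genome, so that reads may have been split among them and the values are uncertain.

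Several S100 genes and other genes associated with neutrophils rose to high levels. S100a8, encoding a subunit of calprotectin, was at 5083, 4224, 3928, 4030 and 4237 CPM in CD11b+ AMs and 4.35, 4.55, 5.94, 4.36 and 2.73 CPM in CRE- AMs, 981-fold higher (adjusted p = 1.87e-14). Its partner S100a9 was at 3090 to 4130 CPM against 0 to 0.239 CPM. Both were also present in CD11b- AMs, S100a8 at 353 to 1208 CPM and S100a9 at 254 to 796 CPM. S100a6 rose 24.6-fold, and of 10 tested S100 genes 4 were higher and none lower.

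All 10 tested neutrophil markers were higher in CD11b+ AMs, and 17 of 18 listed markers were in the files. A marker near 0 in CRE- AMs passed the filter on counts only where CD11b+ or CD11b- AMs held it. It could then only be called higher, so the count of 10 of 10 was partly set by the filter. The summed level of the 17 markers was 8219 to 10563 CPM against 89.7 to 114 CPM in CRE- AMs. It was 1201 to 1409 CPM against 85.3 to 111 CPM when S100a8 and S100a9 were left out. Cxcr2, the receptor by which neutrophils follow CXC chemokines, was at 562, 536, 482, 617 and 579 CPM against 2.01 to 4.78 CPM, 175-fold higher. Csf3r, the G-CSF receptor gene, rose 9.57-fold to 359 ± 15.6 CPM, and Lcn2 was at 131 ± 25.8 CPM against 0.199 ± 0.16 CPM. In contrast, the granule genes Elane, Mpo and Ctsg had no count in any CD11b+ library, and Camp, Prtn3, Padi4 and Stfa2l1 had means under 1 CPM. Ngp was uneven, from 0 to 13.4 CPM over the CD11b+ libraries, and Retnlg was at 2.75 ± 1.14 CPM. The part of other cells in these levels was not tested.

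Of 25 tested chemokine genes 14 were higher and 3 lower. Cxcl16, a transmembrane chemokine, was at 197, 161, 212, 217 and 226 CPM in CD11b+ AMs against 3.02 to 5.91 CPM in CRE- AMs, 54.9-fold higher (adjusted p = 1.23e-13). Ccl6, abundant in AMs at 5074 to 5898 CPM in CRE- libraries, reached 16670.0 to 21014 CPM, a 3.26-fold increase, and Ccl9 rose 10.7-fold. Cx3cl1 fell 2.06-fold. Ccl7 and Pf4 rose 5.26-fold and 7.23-fold with a wide spread over the CD11b+ libraries, Ccl7 at 30.5, 20.1, 14.8, 57.3 and 23.9 CPM.

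Of 23 tested receptors for chemokines and other chemoattractants, 13 were higher and 1 lower. Besides Cxcr2, its close relative Cxcr1 rose 28.7-fold, from 4.22 to 6.52 CPM in CRE- AMs to 144 to 170.3 CPM (adjusted p = 3.10e-16). C3ar1, the receptor of the complement fragment C3a, was at 73.4 to 129 CPM against 0.315 to 1.25 CPM, 101-fold higher, whereas C5ar1, the receptor of C5a, fell 2.12-fold from 1008 ± 72 CPM. Ccr2, the receptor through which monocytes leave the marrow, rose 6.08-fold to 32.4 ± 9.62 CPM. Compared with CD11b- AMs, 11 of the 23 receptors were higher and none lower, where 6.85% of all genes tested were higher.

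Of 13 tested genes of the interleukin-1 (IL-1) family and its receptors, 12 were higher and none lower, a median log2 fold change of 1.90. Il1f9, encoding IL-36γ, was at 347, 330.1, 323, 282 and 364 CPM against 9.37 to 11.9 CPM, 31.8-fold higher (adjusted p = 7.83e-15). The cytokine genes Il1a and Il1b rose 3.46-fold and 3.13-fold, Il1a to 501 ± 26.2 CPM and Il1b to 1275 ± 223 CPM, and Il1rn, encoding the receptor antagonist, rose 3.25-fold to 1059 ± 123 CPM. Both IL-18 receptor chains appeared: Il18rap rose 31-fold (log2 fold change 6.04 without CRE- library 5), and Il18r1 was at 13.3 to 21.6 CPM with a count in a single CRE- library. The member without a call was Il18, at 146 to 202 CPM against 314 to 357 CPM, a log2 fold change of -0.91 (edgeR quasi-likelihood test, adjusted p = 2.19e-08). The 12 called members, with ligands, antagonist and receptors among them, were thus higher, whereas the ligand gene Il18 fell short of the 2-fold threshold. Of the 13 genes, 7 were also higher than in CD11b- AMs (6.85% of all genes).

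Genes that mark AM identity split. Of 39 tested, 7 were higher and 8 lower, and their median log2 fold change was -0.09. Car4, encoding a membrane carbonic anhydrase, was at 1665, 1074, 1963, 1521 and 1354 CPM in CD11b+ AMs and 389, 483, 509, 619 and 604 CPM in CRE- AMs, 2.91-fold higher (adjusted p = 2.20e-06). Chil3, a chitinase-like lectin gene, was among the most abundant transcripts of every library, at 35951 to 50254 CPM against 16191 to 26542 CPM, with a log2 fold change of 0.80 that missed the 2-fold threshold. Ear2 fell 3.86-fold together with Ear1, whereas their relative Ear6 rose 14.1-fold from about 1.08 CPM. The fatty acid binding protein genes Fabp1 and Fabp4 fell 8.8-fold and 5.4-fold, Fabp4 from 79.4 to 94.9 CPM in CRE- AMs to 13.4 to 18.7 CPM.

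Pparg and Cebpb, transcription factor genes of the AM identity list, did not pass the 2-fold threshold. Pparg was at 194, 213, 204, 219.7 and 209 CPM in CD11b+ AMs and 246, 236, 253, 251 and 227 CPM in CRE- AMs. The groups did not overlap, but the difference was small (-0.22 on the log2 scale, SE 0.06, adjusted p = 4.50e-03). Cebpb was at 2370.0 to 2963 CPM against 2866 to 3615 CPM, a log2 fold change of -0.33 (SE 0.08) with overlapping groups. Cebpa, the gene of its myeloid relative, did pass it, falling 2.83-fold from 196 ± 12.8 to 69.2 ± 11 CPM.

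Over the whole list of macrophage transcription factors, 44 of 55 tested were not called, 7 were higher and 4 lower, 20% called beside 15.3% of all genes. The immediate-early factors Egr2 and Egr1 fell 4.17-fold and 3.28-fold, Egr2 from 807 to 1019 CPM in CRE- AMs to 145 to 277 CPM. Irf7, a regulator of interferon genes, rose 4.81-fold to 23.9 ± 5.5 CPM. Egr1 was at 149 ± 46.4 CPM in CD11b- and 146 ± 34.5 CPM in CD11b+ AMs.

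Lipid handling changed in both directions. Of 40 tested genes of lipid uptake, storage and export, 6 were higher and 8 lower, 35% called beside 15.3% of all genes. Apoe, encoding the lipoprotein through which macrophages export cholesterol, was at 1869, 1624, 1116, 1756 and 2003 CPM in CD11b+ AMs and 24.1 to 58.8 CPM in CRE- AMs, 40.8-fold higher (adjusted p = 2.65e-13). Dgat2, which makes triglyceride, rose 8.07-fold to 752 ± 69.4 CPM, and G0s2, an inhibitor of triglyceride lipase, rose 21.5-fold to 380.5 ± 54.6 CPM. Gpd1, Fabp1, Fabp4 and the lipid transporter gene Abca3 were the largest decreases, Abca3 falling 8.1-fold.

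In sterol and fatty acid synthesis 2 of 35 tested genes were higher and 6 lower (5.68% of all genes were lower). Scd1, the stearoyl-CoA desaturase gene, stood out at 234 to 432 CPM against 2.65 to 5.75 CPM, 69-fold higher (adjusted p = 5.67e-14). The cholesterol synthesis genes Dhcr7 and Mvd and the sterol sensor partner Insig1 fell 3.81-fold, 2.85-fold and 2.06-fold. Without CD11b+ library 1 the log2 fold change of Insig1 was -0.92 and 3 genes of the list were lower. Of 23 tested glycolysis genes 3 were higher and 1 lower, 17.4% called and thus near the 15.3% of all genes: the glucose transporter gene Slc2a1 rose 8.91-fold to 256 ± 12.3 CPM, Pdk4, an inhibitor of pyruvate dehydrogenase, rose 15-fold, and the hexokinases moved apart, Hk3 rising 3.91-fold and Hk1 falling 3.04-fold.

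Surface receptor genes were called in both directions. Of 36 tested Siglec, CD300 and other surface genes, 15 were higher and 8 lower, and of 46 phagocytic, scavenger and lectin receptor genes, 17 and 9, where 15.3% of all genes were called in either direction. Ms4a1, which encodes CD20 and is known from B cells, was at 46.5, 67.3, 60.8, 70.7 and 77.8 CPM against 1.39 to 4.74 CPM, 20.7-fold higher (adjusted p = 4.68e-10). The other 6 B cell markers in the files summed to 6.74 to 16.1 CPM in CD11b+ AMs and 5.83 to 9.23 CPM in CRE- AMs. The Siglec genes Mag and Cd22 fell 5.63-fold and 3.15-fold along with Siglecf. Among lectin receptors, Clec4d and Clec5a rose 11.8-fold and 9.57-fold, whereas Clec4a3 fell 5.46-fold with Clec4b1 and Clec4a2. Mfge8, which bridges apoptotic cells to phagocytes, rose 13.9-fold and the galectin gene Lgals1 fell 3.36-fold.

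Integrin genes were also called in both directions. Itgb2, the β chain that pairs with CD11b and CD11c, was at 1108 to 1227 CPM in CD11b+ AMs and 2205 to 2399 CPM in CRE- AMs, a fall of 2.01-fold that lies at the threshold. Its log2 fold change was -0.993 to -0.998 and no longer called without CD11b+ library 1, 2 or 3 or CRE- library 3, 4 or 5. The α chain genes Itgad, Itga1 and Itga4 fell 5.3-fold, 3.53-fold and 3.21-fold. Besides Itgam, Itgb7 rose, with overlapping groups and a CD11b+ range of 2.42 to 19.2 CPM. Of 19 tested integrin genes, 5 were higher and 4 lower, 47.4% called beside 15.3% of all genes. The 5 include Itgam, whose call describes the sort.

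Genes of the MHC class II pathway were called in both directions. H2-DMa, which encodes a chain of the H2-M peptide editor, was at 64.2, 71.9, 64.7, 63.9 and 66.9 CPM in CD11b+ AMs against 465, 447, 439, 487 and 522 CPM, a 7.12-fold fall with little spread (log2 fold change -2.83, SE 0.07, adjusted p = 1.81e-16). The genes of its partner chains, H2-DMb1 and H2-DMb2, fell 2.23-fold and 2.79-fold. Cd74, the invariant chain gene, rose 3.1-fold, with 353 to 689 CPM against 97.8 to 279.6 CPM, and H2-Eb1 and Cd86 rose 2.6-fold and 2.23-fold with overlapping groups. Without CD11b+ library 1 the log2 fold change of Cd86 was 0.83, below the threshold. H2-Ab1 and H2-Aa, the classical chains, had log2 fold changes of 0.81 and 0.96 and did not pass the threshold, which H2-Aa passed without CD11b+ library 2 or 3 (1.06 and 1.07) or CRE- library 4 or 5 (1.05 and 1.25). H2-Oa was higher at a mean of 12.2 CPM and Cd40 at 2.6 CPM, Cd80, Ciita and H2-Ob were not called, and H2-Eb2 had too few counts to test.

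Of 13 tested complement genes 9 were higher and 2 lower, with 2 not called. C1qa, C1qb and C1qc, which encode the chains of C1q, were at means of 49.1, 46.5 and 49.7 CPM in CD11b+ AMs and 0.453, 0.614 and 0.659 CPM in CRE- AMs. Of 20 tested genes of other tissue macrophages, 11 were higher and 9 not called. Lyve1, a hyaluronan receptor of interstitial macrophages, was at 24.2, 37.4, 23.6, 31.4 and 35.7 CPM against 0 to 0.348 CPM, 266-fold higher (adjusted p = 5.15e-11), with a log2 fold change of 8.87 without CRE- library 1. Stab1, a scavenger receptor gene, was at 6.34 to 24.3 CPM with counts in a single CRE- library.

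**Figure D3:**
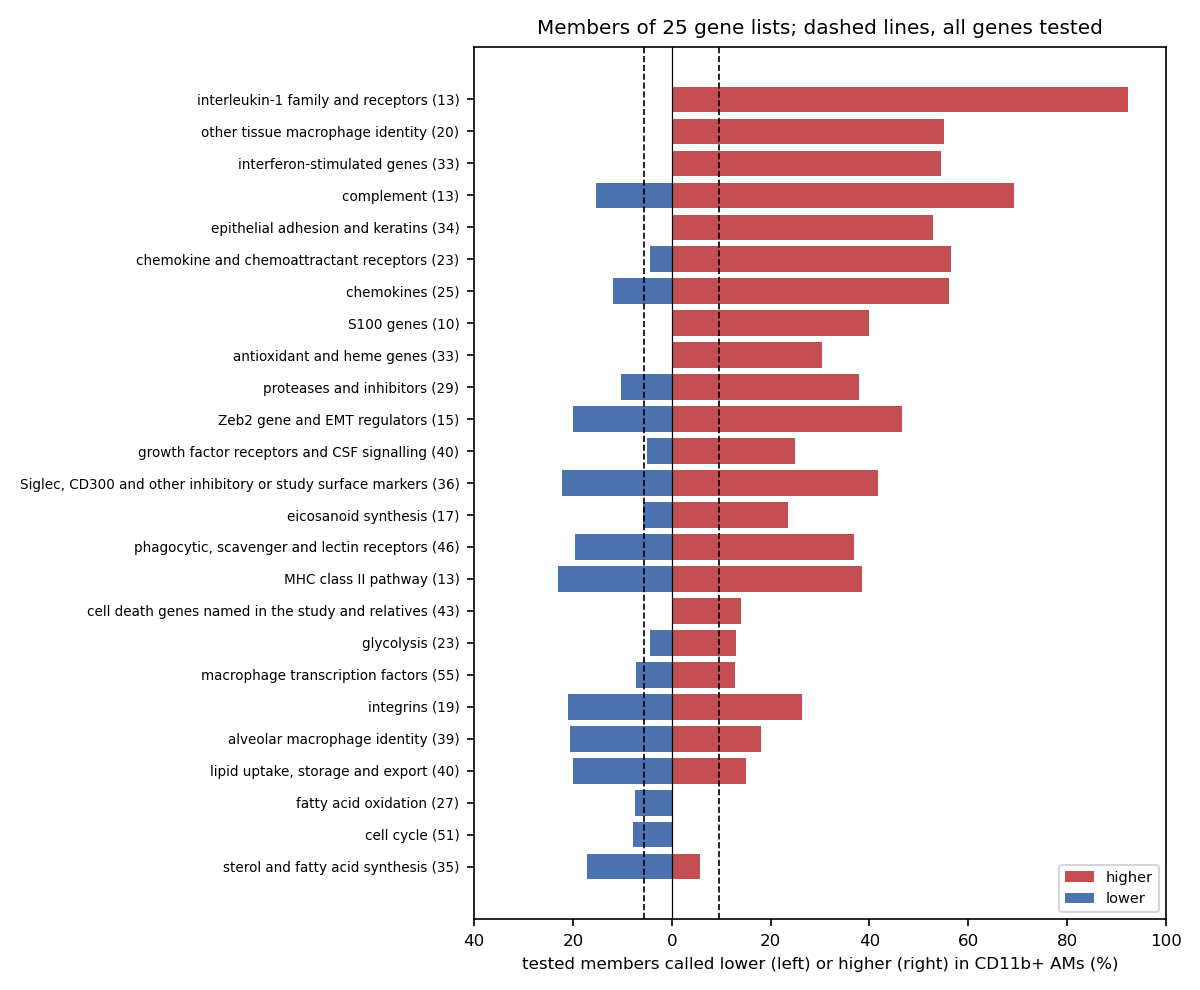
Share of tested members (number tested in brackets) of 25 gene lists called higher (right, red) or lower (left, blue) in CD11b+ against CRE- AMs, with dashed lines at the shares of all genes tested, 9.57% higher and 5.68% lower. The IL-1 family list has the longest bar, with 12 of 13 members higher, and 5 lists (AM identity, lipid uptake, storage and export, sterol and fatty acid synthesis, fatty acid oxidation and cell cycle) have more lower than higher members.

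Interferon-stimulated genes were called in one direction, 18 of 33 tested being higher and none lower. Under a filter of at least 10 counts in every library 6 were higher. Oasl2 rose 61.1-fold to 75.5 ± 17.7 CPM, Ifitm3 18.2-fold and Oas3 16.6-fold. Among proteases and their inhibitors 11 of 29 tested were higher and 3 lower. Mmp12, the macrophage elastase gene, was at 424 to 992 CPM against 4.95 to 9.23 CPM, 97.4-fold higher (adjusted p = 7.68e-13), and Mmp14 rose 203-fold (log2 fold change 8.41 without CRE- library 4). The protease inhibitor genes Slpi and Timp2 fell 5.54-fold and 2.62-fold, Slpi from 462 ± 30.2 to 83.3 ± 9.1 CPM. Stfa1, of the stefin family with near-identical copies, had no CRE- count and was at least 139-fold higher.

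Of 43 tested cell death genes 6 were higher and none lower (1 lower without CD11b+ library 3 or CRE- library 1), 14% called beside 15.3% of all genes. Ripk3, the kinase of necroptosis, was at 84.9, 63.5, 92.8, 73.7 and 69.5 CPM in CD11b+ AMs and 9.57, 13.6, 13.6, 14.8 and 17.3 CPM in CRE- AMs, 5.58-fold higher (adjusted p = 9.31e-09). Every CD11b+ library was above every CRE- library. Zbp1, which binds RIPK3, the BH3-only gene Bid and the anti-apoptotic gene Bcl2l1 rose 2.67-fold, 3.49-fold and 2.41-fold. Ripk3 in CD11b- AMs was at 14.4 ± 6.25 CPM, near the CRE- mean of 13.8 ± 2.79 CPM, and it was higher in CD11b+ than in CD11b- AMs (log2 fold change 2.41, adjusted p = 4.05e-08).

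Of 40 tested genes of growth factor and colony-stimulating factor signalling, 10 were higher and 2 lower. Inhba, encoding the activin A subunit, was at 216, 239, 272, 322 and 175 CPM against 2.87 to 12.6 CPM, 37.6-fold higher (adjusted p = 1.24e-10). Csf1, the macrophage growth factor gene, rose 9.54-fold to 10.8 ± 3.65 CPM. Tgfb2 fell 73.5-fold, from 4.57 to 12.4 CPM in CRE- AMs to at most 0.493 CPM, and its log2 fold change was -8.08 without CD11b+ library 2.

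A small set of the higher genes varied widely among the 5 CD11b+ libraries. Among 8081 tested genes with a CD11b+ mean of at least 3 log2 CPM, the highest library exceeded the lowest by more than 3-fold for 58 genes, 0.718%. Of 661 higher genes at that level it did so for 31, 4.69%. Library 3 was the lowest for 22 of these 31 genes, and library 1 was the highest for 12 and library 4 for 11. C1qa was at 72.5, 28, 18, 80.4 and 46.7 CPM in libraries 1 to 5, and C1qc at 71.3, 30.4, 18.2, 81.5 and 47.2 CPM. The monocyte genes Ly6c2 and F13a1 were at 124, 90.6, 37.6, 124 and 174 CPM and at 35.4, 36.7, 18, 68.4 and 30.1 CPM. All 4 were low in library 3, and their means were under 3 CPM in CD11b- and under 1 CPM in CRE- AMs. In contrast, Epcam, Cd101, Itgam, Cd177 and Slc2a1 differed by less than 1.5-fold between the highest and the lowest CD11b+ library. The genes in this paragraph outside the lists were chosen after their values were seen.

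**Figure D4:**
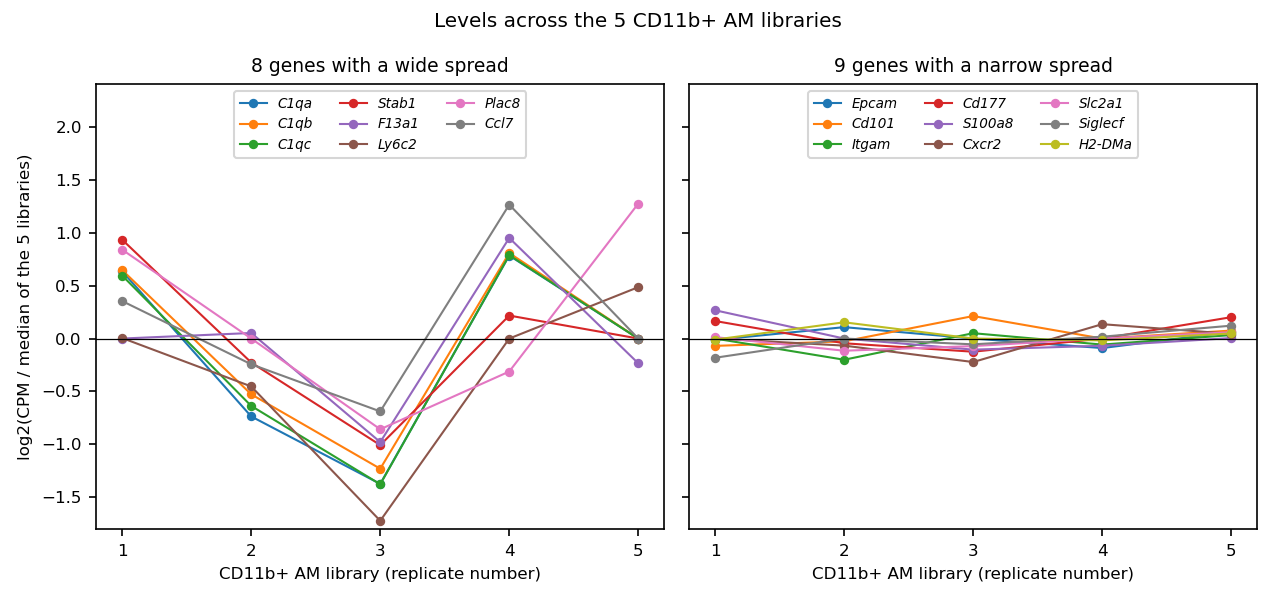
Level of each gene in CD11b+ AM libraries 1 to 5 relative to its median over the 5, on a log2 scale, for 8 genes with a wide spread (left) and 9 with a narrow spread (right), chosen after their values were seen. The genes at left were low in library 3 and most of them high in libraries 1 and 4, such as C1qa with 18, 72.5 and 80.4 CPM, whereas those at right stayed close to their median.

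Markers of other cell types that the sort could hold were read over their whole lists. The 13 monocyte markers summed to 884 to 1214 CPM in CD11b+ AMs and 1221 to 1452 CPM in CRE- AMs, and without the abundant Nr4a1 to 154 to 375 CPM against 91.2 to 99.7 CPM, with 7 of 12 tested markers higher and 1 lower. Ly6c2 and F13a1 were among these and Vcan had no count in CD11b+ AMs. The 9 dendritic cell markers summed to 400.2 to 643 CPM against 63 to 109 CPM, and without Cd24a to 13.6 to 20.4 CPM against 9.51 to 11.7 CPM. The 18 lung epithelial markers summed to 145.8 to 195 CPM against 168 to 209 CPM, with 3 of 13 tested higher and 1 lower. The lower member was Abca3, named above among lipid genes, and 9 of the 18 had a CD11b+ mean under 1 CPM. The part of epithelial cells in the Epcam and Krt8 values was not tested. T and NK cell markers summed to 8.51 to 21.1 CPM against 3.3 to 7.2 CPM, endothelial and fibroblast markers to 55.1 to 88.3 CPM against 41.2 to 73 CPM, and those of eosinophils, mast cells and basophils and erythroid cells stayed under 10 CPM in every CD11b+ library. The 8 AM markers summed to 39676 to 54316 CPM against 18915 to 29238 CPM, and without the abundant Chil3, which was not called, to 3725 to 5031 CPM against 2696 to 3065 CPM, with 2 of the 8 higher and 3 lower. The part of such cells in the monocyte and complement values above was not tested.

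**Figure D5:**
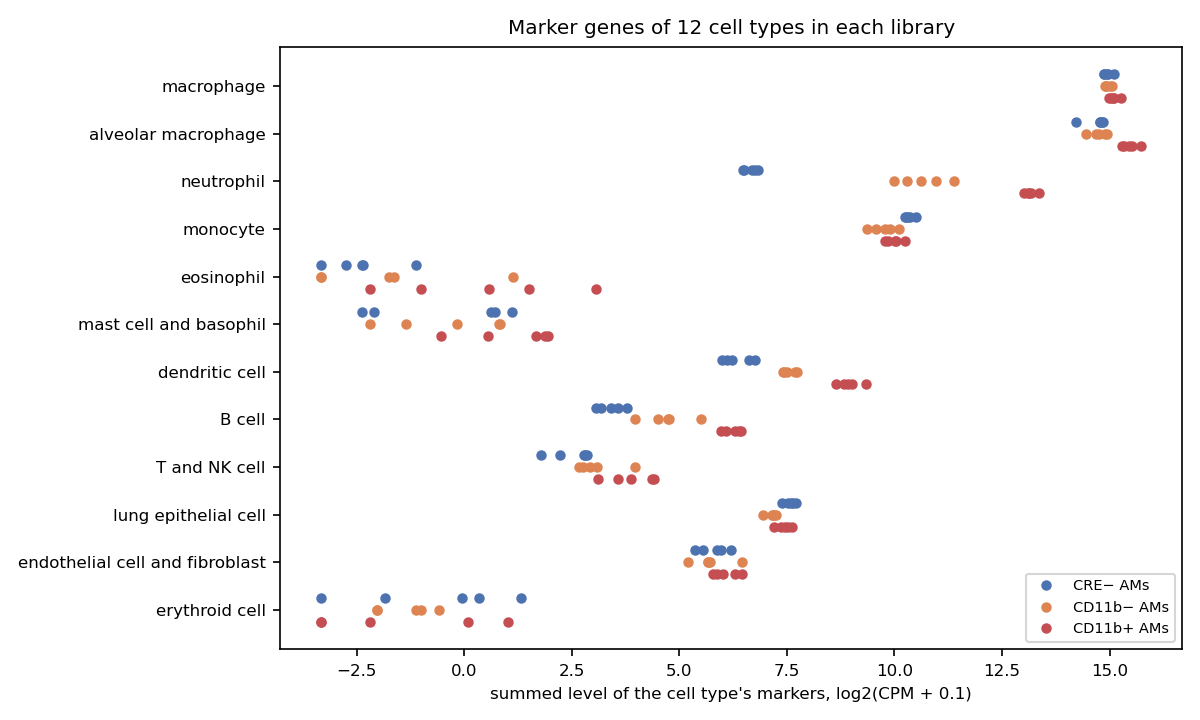
Summed level of the marker genes of 12 cell types, as log2(CPM + 0.1), in each CRE-, CD11b- and CD11b+ AM library, with one point per library. Macrophage and AM markers were abundant in all 15 libraries, the neutrophil sum was 8219 to 10563 CPM in CD11b+ against 89.7 to 114 CPM in CRE- AMs, and the lung epithelial sums overlapped.

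The CD11b- AMs came from mice of the same genotype as the CD11b+ AMs, and this comparison uses the same CD11b+ libraries as the one above. Since CRE+ lungs hold AMs with and without an intact Zeb2 allele, the sorted cells themselves may differ in Zeb2 genotype. The share of each kind in the CD11b+ and CD11b- sorts was not tested. Against CD11b- AMs, 793 genes were higher and 382 lower in CD11b+ AMs, 10.2% of the genes tested (6.85% higher and 3.3% lower). Ripk3, Zeb1, Ly6c2, F13a1 and Mmp9 had CD11b- means near their CRE- means and were higher in CD11b+ AMs than in both. The gelatinase gene Mmp9 was at 14.2 ± 4.78 CPM in CD11b+, 0.0098 ± 0.0219 CPM in CD11b- and 0.0647 ± 0.121 CPM in CRE- AMs. Id3 was at 53.6 ± 18.7 and 60.1 ± 15 CPM against 16.9 ± 5.08 CPM in CRE- AMs, and the collagenase gene Mmp8 at 219.7 ± 51.5 and 188 ± 41.6 CPM against 55.5 ± 8.8 CPM. For Id3 the difference between CD11b+ and CD11b- AMs was -0.17 log2 units (SE 0.22) and for Mmp8 0.23 (SE 0.17), neither of which passed the test. Epcam, Cd101, Krt8, S100a8, Cxcr2, Gpd1 and Ear1 had their CD11b- mean between the other groups, with a difference from CD11b- AMs that passed the test.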

How the data were processed

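Bulk RNA-seq gene counts of 33 sorted macrophage samples were used. Per the labels and the study's methods, the authors trimmed reads with Trimmomatic 0.35 (version from the submitters' processing notes, which also name FastQC 0.11.4, TopHat2 2.1.0 and SAMtools 0.1.18), aligned them to mm10 with TopHat2 and deposited raw counts per gene from HTSeq, 1 file per library. The strand setting is not given in the sources used here. Rows of unassigned reads, 6.03 to 6.96% of CD11b+ and CRE- libraries, were left out.

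Counts of the 15 AM libraries were fitted with edgeR 4.0.16 (R 4.3.3; TMM, filterByExpr, quasi-likelihood test, 1 mean per group), and a gene was called at a Benjamini-Hochberg adjusted p under 0.05 over all 11573 genes tested and an absolute log2 fold change above 1. CPM use the effective library sizes, so that genes gaining very many counts lower the CPM of others unless the factors correct it. At the adjusted p alone, the fit recovered 71.7% of 99 genes simulated with a 2-fold and 87.9% of 99 with a 4-fold change in CD11b+ against CRE- AMs, among 11404 genes, with 6 false calls. Ratios of counts carry exact intervals at 95%, and bounds use a floor of 3 counts per library; both cover counting error only. No pair of replicates agreed within sampling noise (chi-square per gene at least 12.8). Gene positions are from GENCODE M21 (GRCm38), found for 95.7% of symbols, and promoters from RefSeq (GRCm38.p6).

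By the rule for names, the text draws on 14 genes of interest (Zeb2, Zeb1, Itgam, Itgax, Siglecf, Epcam, Cd101, Cebpb, Pparg, Car4, Chil3, Ripk3, Il1a and Il1b), on the 10 largest increases and 10 largest decreases among called genes with groups that do not overlap and a higher mean of at least 5 log2 CPM, on leading members of each gene list with a higher mean of at least 3 log2 CPM, and on cell type markers. The members, lists, markers and rule were chosen with earlier results of these data known. Alternatives were limma-voom (limma 3.58.1), DESeq2 1.42.0, RLE factors, other filters, sample sets and thresholds, a replicate block and leaving out each library or the 10 genes with most counts. Some genes are not reported here.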

Additional observations from a re-analysis of the deposited data

Results flagged for a closer look

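Each of these values lay far from the other 4 libraries of its group, the gap to the nearest being above Dixon's 95% critical value of 0.71 of the group's range in log2(CPM + 0.5). Of 292 groups of values examined 17 did so, and chance gives about 1 in 20.

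Among the 5 CD11b+ AM libraries, Ciita in library 1 was the lowest at 0 CPM, where the others held 1.47 to 2.42 CPM. Csf1r in library 2 was the lowest at 288 CPM, where the others held 349 to 365 CPM. Esrp2 in library 3 was the highest at 4.33 CPM, where the others held 1.77 to 2.32 CPM. Fcgr1 in library 3 was the lowest at 61.4 CPM, where the others held 90.3 to 104 CPM. Il1rn in library 1 was the highest at 1271 CPM, where the others held 952 to 1030 CPM. Insig1 in library 1 was the lowest at 36.5 CPM, where the others held 58.7 to 69.5 CPM. Itgb7 in library 3 was the lowest at 2.42 CPM, where the others held 10.9 to 19.2 CPM. Rab44 in library 1 was the highest at 3.02 CPM, where the others held 1.16 to 1.47 CPM. S100a6 in library 3 was the lowest at 28.5 CPM, where the others held 67.5 to 86.2 CPM. Scd1 in library 1 was the highest at 432 CPM, where the others held 234 to 279 CPM.

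Among the 5 CRE- AM libraries, Ccr2 in library 5 was the lowest at 2.58 CPM, where the others held 5.41 to 6.91 CPM. Chil3 in library 1 was the lowest at 16191 CPM, where the others held 24945 to 26542 CPM. Cxcl16 in library 5 was the highest at 5.91 CPM, where the others held 3.02 to 3.3 CPM. G0s2 in library 2 was the highest at 23.6 CPM, where the others held 15.3 to 17.1 CPM. Oas3 in library 1 was the lowest at 0.391 CPM, where the others held 1.92 to 3.13 CPM. Spint2 in library 4 was the lowest at 6.31 CPM, where the others held 9.18 to 10.2 CPM. Tfrc in library 5 was the lowest at 1.44 CPM, where the others held 5.36 to 6.03 CPM.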

How the results depend on the processing

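The numbers of genes higher and lower stayed within 1.5 times of 1108 and 657 (CD11b+ against CRE- AMs) and of 793 and 382 (against CD11b- AMs) under other factors, limma-voom, DESeq2, no filter, other sample sets and without the 10 genes with most counts. A filter of 10 counts in every library left 616 and 404 genes higher, since genes absent from one group are then not tested. Under that filter fewer members were tested and called higher among epithelial genes (9), EMT regulators (4), integrins (0), chemoattractant receptors (7), Siglec and surface genes (9), phagocytic receptors (11), interferon-stimulated genes (6), proteases (5), complement (4) and genes of other tissue macrophages (4), and no growth factor gene was lower. With only the 2 groups in the fit 2 integrin genes were higher, with all 33 samples 5 glycolysis genes were higher, and with limma-voom 2 glycolysis genes were lower (causes not tested). Without the 2-fold threshold 2635 and 2369 genes were higher and lower than in CRE- AMs and 2295 and 1920 than in CD11b- AMs. Leaving out 1 library at a time gave 1079 to 1134 and 636 to 690 genes against CRE- AMs and 743 to 820 and 345 to 402 against CD11b- AMs. Same-numbered CD11b+ and CRE- libraries deviated together only weakly (r = 0.0377 to 0.0877), and the labels do not tie the numbers to animals; no correlation passed 0.1. With the replicate number as a block, 1110 and 679 genes were higher and lower than in CRE- AMs and 807 and 377 than in CD11b- AMs, and among the named genes the block changed the call of H2-Aa (log2 fold change 1.04). Of 142 named genes called against CRE- AMs, 139 kept their call under every alternative that gave a value for them, and none of the 160 named genes changed sign. The others lie near the threshold: Itgb2 (-0.99 with all 33 samples, cause not tested), Insig1 and Cd86. H2-Aa was called under 7 alternatives, including that with no fold threshold. Depth limits the reading of genes with few counts, some of which are given as bounds or with counting intervals.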

Other observations

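Of 51 tested cell cycle genes none was higher and 4 were lower in CD11b+ than in CRE- AMs, 7.84% beside 5.68% of all genes lower, with a median log2 fold change of -0.32. Cdk4, a kinase of the G1 phase, fell 2.63-fold from 104 ± 8.25 to 39.6 ± 3.38 CPM (adjusted p = 3.22e-10), and Tk1, encoding thymidine kinase, fell 2.35-fold. CD11b- AMs held Cdk4 at 101 ± 14.2 CPM, and against these cells 11 of the 51 genes were lower (3.3% of all genes) and none higher in CD11b+ AMs. Of 27 tested fatty acid oxidation genes 2 were lower and none higher, 7.41% called beside 15.3% of all genes, Etfb, an electron transfer flavoprotein gene, falling 2.05-fold and the coactivator gene Ppargc1b 2.21-fold.

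In antioxidant and heme metabolism 10 of 33 tested genes were higher (9.57% of all genes) and none lower. The transferrin receptor gene Tfrc rose 5.93-fold to 29.3 ± 5.21 CPM, the cystine transporter gene Slc7a11 4.42-fold to 66.2 ± 20.6 CPM and Slc11a1, an iron transporter of phagosomes, 3.88-fold. Slc7a11 and Slc11a1 did not differ past the threshold between CD11b+ and CD11b- AMs (log2 fold changes of 0.23 and 0.50). In eicosanoid synthesis 4 of 17 tested genes were higher and 1 lower (2 lower without CD11b+ library 1, 2 or 5 or CRE- library 3): Ptgs2, the inducible cyclooxygenase gene, rose 4.97-fold to 27.4 ± 6.42 CPM, and Ltc4s, which makes leukotriene C4, fell 2.33-fold from 201 ± 6.94 to 86.2 ± 6.81 CPM (edgeR quasi-likelihood test, adjusted p = 4.14e-11).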
